A study of Homo sapiens with 2 samples.

Results

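The kallikrein gene cluster on chromosome 19 held 6 of the 36797 binding sites (peaks) listed for GATA2 in LNCaP cells, a human prostate cancer line that responds to androgen. A peak was counted when its midpoint lay in the window from 51.22 to 51.7 Mb of chromosome 19 in hg19, a stretch of 480 kb, and the other 477 peaks of chromosome 19 were used for comparison. The limits of the window and the gene positions come from where the genes lie and use no peak score. The members and lists were, however, chosen with earlier results of these data known. The data came from chromatin immunoprecipitation with an antibody against GATA2 followed by sequencing (ChIP-seq), in 2 replicate samples that make up 1 group. Both samples were LNCaP cells moved from serum-containing medium to medium with serum stripped by charcoal, and so low in steroid hormones, ahead of the assay, and both were used between passages 32 and 34. The study set out to find where GATA2 binds. Its samples include no input, androgen-treated or other comparison group, so nothing here bears on a response to hormone.

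The deposited data are 1 list for the series, with a position and a peak score from the authors' peak caller for each peak, and no value for either replicate. There is therefore no replicate error for any value, no test over samples could be made, and no p-value is given. The score has no stated unit, and it is used here only to rank peaks and compare median scores within the list. Read depth is unknown, so the lack of a listed peak at a gene does not show that GATA2 was not bound there. Intervals below are 95% intervals that cover counting over peaks only, and peaks are not replicates.

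Kallikreins are secreted serine proteases whose genes lie side by side on chromosome 19. KLK3 encodes prostate-specific antigen (PSA), the serum marker of prostate disease, which cleaves the gel-forming proteins of semen. KLK2 encodes a trypsin-like protease that can activate the PSA precursor. Both are textbook targets of the androgen receptor in prostate epithelium, which acts at KLK3 through elements in the proximal promoter and through an upstream enhancer. GATA2 is a zinc-finger transcription factor that recognises sites with a GATA core. It is known in prostate cells as a factor that opens chromatin and assists binding of the androgen receptor.

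KLK3 and KLK2 are neighbouring copies that resemble each other in their proximal promoters. Each of the 2 genes has a high-scoring peak a few kb before its interval. The promoter sequences are shown because the hg19 sequence under the peaks was not available here. Each is the 250 bases before the gene start on the plus strand, from RefSeq on GRCh38.p14, with KLK3 at chr19:50854665-50854914 and KLK2 at chr19:50873189-50873438. Those positions belong to another build than the peaks and cannot be set beside them. Capitals mark the longest stretch that the 2 sequences share letter for letter.
KLK3: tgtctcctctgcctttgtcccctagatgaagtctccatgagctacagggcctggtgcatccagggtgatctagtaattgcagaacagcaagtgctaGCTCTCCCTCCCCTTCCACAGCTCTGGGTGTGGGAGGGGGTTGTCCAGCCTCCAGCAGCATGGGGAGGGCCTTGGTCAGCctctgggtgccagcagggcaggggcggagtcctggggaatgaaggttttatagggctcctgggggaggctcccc
KLK2: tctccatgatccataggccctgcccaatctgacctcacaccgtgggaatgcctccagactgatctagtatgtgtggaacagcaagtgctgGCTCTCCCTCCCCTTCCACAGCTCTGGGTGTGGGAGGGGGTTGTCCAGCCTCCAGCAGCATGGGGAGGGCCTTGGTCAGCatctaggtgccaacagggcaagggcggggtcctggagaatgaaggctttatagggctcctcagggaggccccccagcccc

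The shared stretch is 80 bases long and ends 74 bases before the KLK3 start and 80 bases before the KLK2 start. Over a global alignment the KLK2 promoter was identical to that of KLK3 at 80.2% of columns. The other 20 kallikrein promoters in the table, from 11 genes, reached 45.0% to 53.2% against KLK3 in alignments made the same way. No promoters of other genes were aligned, so these lower values cannot be read as resemblance to KLK3.

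The 6 peaks are named A to F here, in the order of their hg19 positions. Peak A (chr19:51307810-51308267, 458 bp) scored 353.2. Peak B (chr19:51345224-51345841, 618 bp) scored 1761. Peak C (chr19:51353743-51354422, 680 bp) scored 1814. The first of these was moderate, and the next 2 stood close to the top of the list. Peak D (chr19:51372568-51373209, 642 bp) scored 1619. Peak E (chr19:51382513-51382662, 150 bp) scored 94.55. Peak F (chr19:51570302-51570536, 235 bp) scored 160.5. The scores of the window thus fell into a high set of 3 (B, C and D) and a set of 3 at 353.2 or less, with nothing between them. The deposited scores run from 80.01 to 3100 over the whole list, with a median of 212.2.

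**Figure D1:**
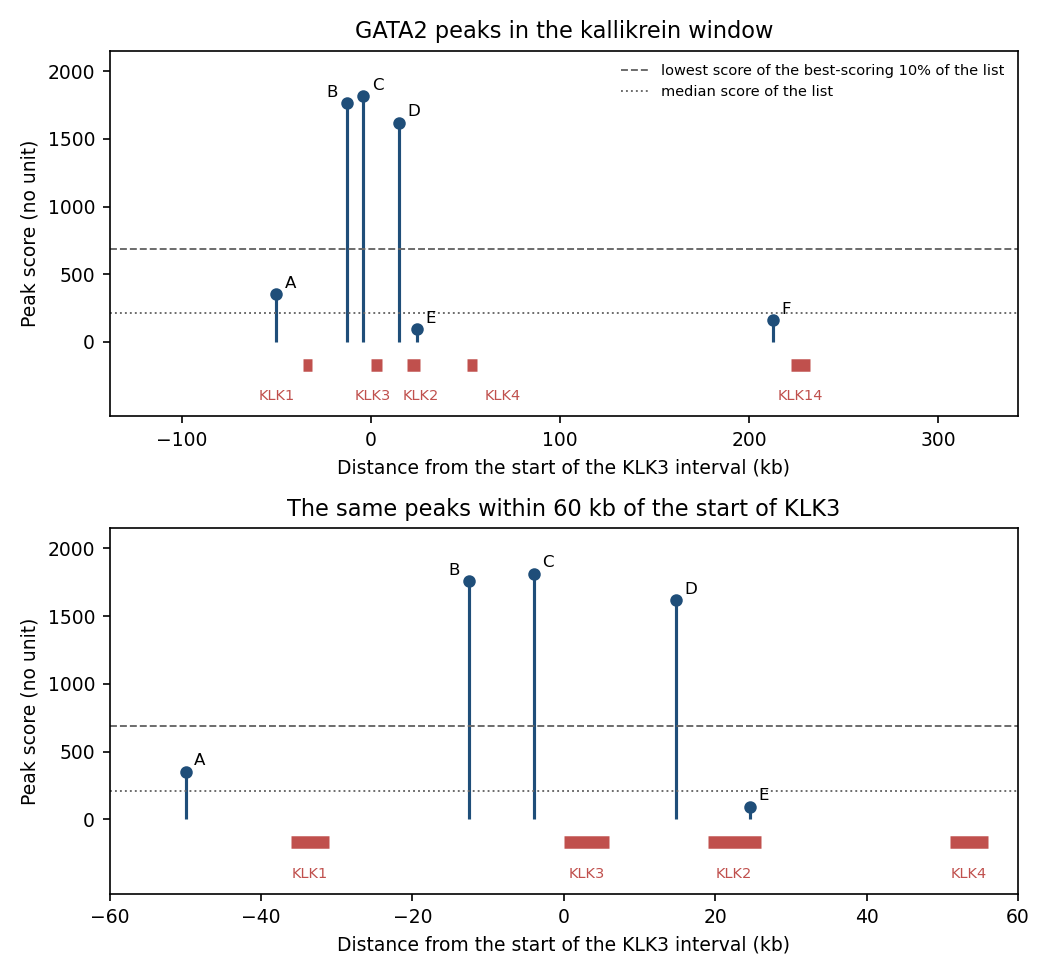
Peak score (no unit) of each GATA2 peak against its distance in kb from the start of the KLK3 interval, over the whole window (top) and within 60 kb of KLK3 (bottom). Each line with a point is 1 peak, lettered A to F, red bars are the gene intervals, and dashed and dotted lines are the lowest score of the best-scoring 10% of the list (686.9) and the list's median (212.2). Peaks B, C and D stand above the dashed line just before KLK3 and KLK2, while KLK4 and KLK14 have no such peak near them.

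KLK3 had the highest-scoring GATA2 peak of chromosome 19 just upstream of it. Peak C was centred 3.9 kb before the KLK3 interval, on the upstream side of this plus-strand gene. It ranked 1 of the 483 peaks on chromosome 19 and 52 in the whole list, within the top 0.141%. The next peak upstream was B, centred 12.5 kb before KLK3. It ranked 3 on chromosome 19 and 66 in the list. No peak midpoint lay inside the KLK3 interval itself (51.358 to 51.364 Mb).

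KLK2 showed a similar arrangement, with a high-scoring peak before the gene. Peak D was centred 4.1 kb before the KLK2 interval (51.377 to 51.384 Mb), also on the upstream side of a plus-strand gene, and 8.9 kb past the end of the KLK3 interval. It ranked 6 on chromosome 19 and 107 in the list. The distances of C from KLK3 and of D from KLK2 differ by less than the 1 kb to which the gene intervals are rounded. KLK2 was the only gene of the 5 with a known hg19 interval that held a peak midpoint, that of peak E. Peak E was among the weakest entries, at rank 421 on chromosome 19, with 91.1% of the list scoring higher.

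KLK1 and KLK15 lie on the other side of KLK3. KLK1 encodes tissue kallikrein, which releases kinins. Its nearest peak was A, centred 14.0 kb before the KLK1 interval (51.322 to 51.327 Mb), with a rank of 106 on chromosome 19. For KLK1, before and past mean lower and higher positions only, since its strand was not used. Peak B lay 18.5 kb past KLK1, farther than from KLK3. KLK15 encodes a trypsin-like kallikrein. Its hg19 interval was not used here, but in the gene order of GRCh38 it lies between KLK1 and KLK3, followed by a long noncoding RNA gene, LOC105372441. KLK15 is a minus-strand gene, so its upstream side faces KLK3. Peaks B and C both lay between KLK1 and KLK3, in the same part of the cluster as KLK15. Whether either overlaps KLK15, lies upstream of it or is nearer to it than to KLK3 was not analysed.

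KLK4 and KLK14 had no high-scoring peak nearby. KLK4 encodes a protease that is made in prostate and in developing tooth enamel. Its nearest peak was E, 26.4 kb away and weak, and the nearest peak in the best-scoring 10% of the list was D, at 36.1 kb from the KLK4 interval (51.409 to 51.414 Mb). KLK14 encodes a trypsin-like protease found in skin. Its only near peak was F, centred 9.6 kb before its interval (51.58 to 51.59 Mb, rounded to 10 kb), on the downstream side of this minus-strand gene, with a rank of 264 on chromosome 19. Between E and F no peak was listed over 187.6 kb, at chr19:51382663-51570301. Of the 482 spaces between neighbouring peaks on chromosome 19, 95 (19.7%) were at least as long, and their median was 68.2 kb. KLK4 lies wholly in this space. In the gene order of GRCh38, the kallikrein genes KLK5 to KLK13, which include the skin proteases KLK5 and KLK7, follow between KLK4 and KLK14. The only peak listed from KLK4 to KLK14 was therefore F. KLK13 comes directly before KLK14 in that order. The hg19 intervals of KLK5 to KLK13 were not used. Whether F overlaps any of them or is nearer to it than to KLK14 was not analysed.

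By number of peaks, the window resembled many others of chromosome 19. Its 6 peaks amount to 12.5 per Mb (exact Poisson interval 4.59 to 27.2), against 8.61 per Mb on the rest of the chromosome, a ratio of 1.45 (interval 0.53 to 3.16) that includes 1. Against all other autosomes the ratio was 0.94. Of 113 other windows of the same length tiled along chromosome 19, 25 (22.1%) held at least 6 peaks, and the number per window ran from 0 to 12 with a median of 4. Moving both edges of the window by 50 kb in either direction left the same count of 6. The peaks just inside the window were A, 88.0 kb from the nearer edge, and F, 129.6 kb from it. Just outside lay a peak of score 89.86 at 729.4 kb before the window and a peak of score 141.1 at 158.3 kb after it.

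By score, the window ranked high. B, C and D made 3 of 6 peaks in the best-scoring 10% of the list (Wilson interval of the share 18.8% to 81.2%), beside a background of 10.0% in the whole list and 8.60% among the other peaks of chromosome 19 (41 of 477, interval 6.40% to 11.5%). The median score was 985.8, but with 6 peaks its interval spans their whole range of 94.55 to 1814. It therefore includes the median of 172.2 (interval 158.3 to 192.1) on the rest of the chromosome. Among the same 113 windows, 3 (2.65%) held as many as 3 peaks of the best-scoring 10% and 83 held none. In this tiling no window held more.

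**Figure D2:**
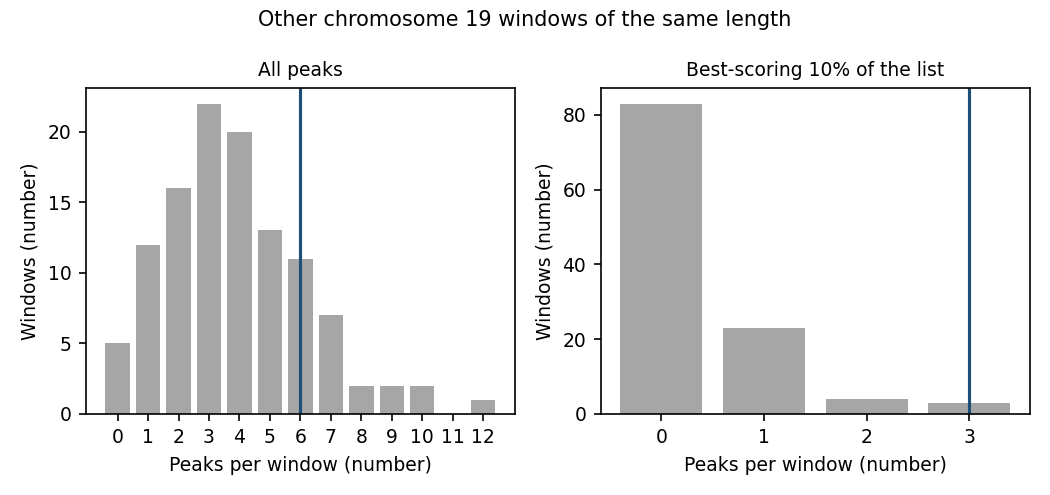
Number of other chromosome 19 windows of 480 kb (vertical axis) by the number of GATA2 peaks in each (horizontal axis), for all peaks (left) and for the best-scoring 10% of the list (right). The blue line is the kallikrein window, which lies within the spread at 6 peaks on the left and at the highest value, 3 peaks, on the right.

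The 3 high-scoring peaks were also wide. Their widths of 618, 680 and 642 bp ranked 15, 7 and 11 on chromosome 19, where the median of the other peaks was 247 bp. Score and width go together in this list, so the comparison was also made with peaks of like score. The 153 peaks of the whole list that scored from 1500 to under 2000 had a median width of 570 bp, and their middle 50% ran from 494 to 645 bp. B and D fell inside that range and C above it. On chromosome 19, 6 peaks scored in that range, and 3 of them were B, C and D. Peak E, at 150 bp, and F, at 235 bp, were narrower than the chromosome's median, and A, at 458 bp, was wider.

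**Figure D3:**
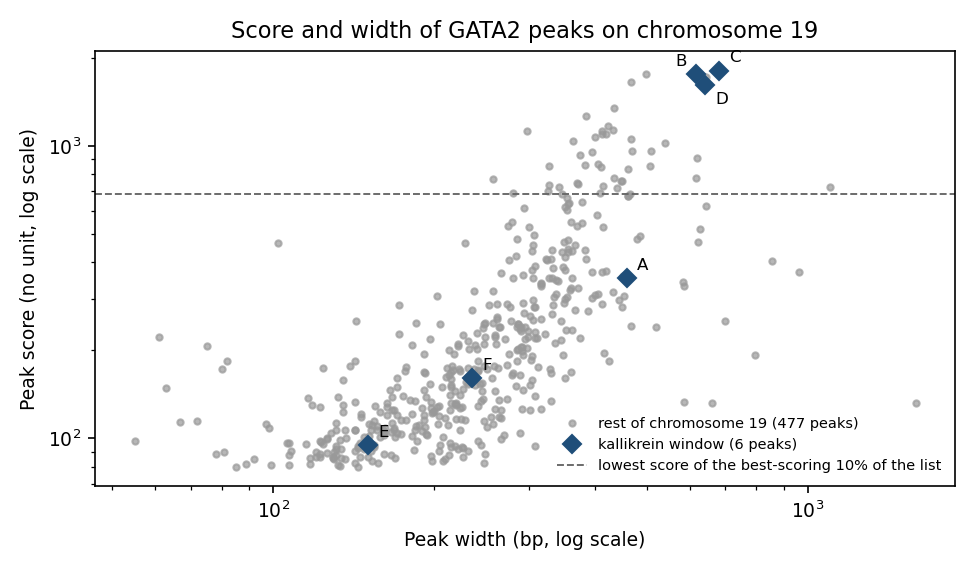
Peak score (no unit, log scale) against peak width in bp (log scale) for the 6 kallikrein peaks (blue, lettered) and the other 477 peaks of chromosome 19 (grey). The dashed line is the lowest score of the best-scoring 10% of the list (686.9), and B, C and D sit at the top right of the cloud at 1619 to 1814, while E and F lie among the low-scoring, narrow peaks.

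The peaks around KLK3 and KLK2 lay nearer to each other than to A and F. Midpoints were 8.55 kb apart from B to C, 18.8 kb from C to D and 9.70 kb from D to E, against 37.5 kb from A to B and 187.8 kb from E to F. A neighbouring midpoint within 10 kb was found for 4 of 6 peaks (66.7%, Wilson interval 30.0% to 90.3%), beside 33.2% of the whole list and 22.2% of the rest of chromosome 19. These were the pairs B with C and D with E, and the latter rests on the weak peak E. Each pair counts for both its members, so the interval, which treats peaks as separate, is too narrow. Within 5 kb none of the 6 had a neighbour, beside 19.7% of the whole list and 14.0% of the rest of chromosome 19, so the difference from the background did not hold at the shorter distance. Within 25 kb of KLK3 or KLK2 lay 4 peaks (B to E), and 3 of these belonged to the best-scoring 10%. KLK4 had no peak within that distance.

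High-scoring peaks were seldom grouped in this way elsewhere in the list. Runs of at least 3 peaks of the best-scoring 10%, with successive midpoints no more than 20 kb apart, numbered 9 in the whole list, and the run of B, C and D, which spans 28.0 kb, was the only one on chromosome 19. Ranked by the lowest of its 3 highest scores, 1619, the kallikrein run came first, and the other 8 runs had values of 698.1 to 1271 with a median of 804.1. It also came first among 17 runs when midpoints up to 30 kb apart were joined and among 31 runs at up to 50 kb. This way of counting was chosen after the kallikrein scores had been seen, so the rank is a description.

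The proximal promoters of KLK3 and KLK2 printed above held no GATA core on either strand. Over all 35116 RefSeq promoters, 45.6% hold the core GATA in the 250 bases before the start, and 22.3% hold that core preceded by A or T and followed by A or G. Of the 15 kallikrein genes 13 matched in that table, with 22 promoters between them. The longer string was found on either strand in 3 of the 22 promoters, from KLK5 and KLK7, and the core in 6 of the 22, from those 2 genes and from KLK14 and KLK15. Several of these genes have more than 1 promoter, and such promoters can overlap. The same site may then be counted more than once, for instance in KLK7. The hexamer AGAACA, 1 arm of the androgen receptor's palindromic element, was found 170 bases before the start of KLK3 and in none of the other 21 kallikrein promoters, against 12.4% of all promoters on either strand. Only exact matches were counted. Where KLK3 reads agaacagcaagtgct, shortly before the shared stretch, KLK2 reads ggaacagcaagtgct, which differs in 1 letter. The search therefore does not set KLK3 apart from KLK2 at this place. These matches describe letters in a window of sequence and not sites of binding. The sequence under peaks A to F was not analysed here.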

How the data were processed

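GATA2 ChIP-seq of 2 LNCaP replicates was represented by 1 deposited peak list. Per the submitters' processing notes, the aligner was Bowtie and the build hg19. The names of the peaks in the file are those of the caller MACS. Not given in the sources used here were tool versions, the use of a control library, duplicate handling and whether replicates were pooled. The deposited score of each peak is the authors' own, with no unit stated. Starts were read as BED and converted to 1-based positions.

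Peaks were assigned by midpoint. Gene intervals in hg19 for KLK1, KLK3, KLK2, KLK4 and KLK14 were those stated with the definition of the window, rounded to 1 kb, or to 10 kb for KLK14. Gene order came from RefSeq on GRCh38.p14, without its coordinates. Densities used the length from first to last peak less peak-free stretches over 2.5 Mb. Windows of 480 kb were tiled outward from the kallikrein window, and those that touched such a stretch were left out. Promoters were aligned globally (match 1, mismatch -1, gap opening -2, gap extension -0.5). Counts have exact Poisson intervals, shares Wilson intervals and medians exact order-statistic intervals. Intervals of the density ratio and of median differences use the window's limits, with the value of the rest of chromosome 19 held fixed. The density and median calculations were tested on simulated data. Every peak of the window is named, by rule, and the members and lists were chosen with earlier results of these data known. Calculations ran in Python 3.11.15 with scipy 1.17.1, pandas 2.3.3 and numpy 2.4.6.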

Additional observations from a re-analysis of the deposited data

How the results depend on the processing

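Of 57 alternative values for 9 results, 48 kept their direction and fell inside the reported value's 95% interval or, for counts, differed by no more than 1.5 times. This count says little about robustness. Merging peaks less than 500 bp apart, placing them by overlap or moving the edges by 50 kb could not alter which peaks the window held. Its peaks had no neighbour within 5 kb and lay 88.0 kb or more from an edge. The intervals of the median differences were also wide, at -77.64 to 1642 for score and -97 to 433 for width. They come from the window's peaks only and hold the median of the rest of chromosome 19 fixed. The density ratio of 1.45 to the rest of chromosome 19 turned to 0.94 against all other autosomes, since chromosome 19 has fewer peaks per Mb, and was 8.45 with the best-scoring 10% of peaks. With that subset the window held 3 peaks, by construction, and 3 other windows held as many. With the better-scoring 50% it held 4 peaks, and 11 other windows held at least as many. With all peaks it held 6, and 25 other windows held at least as many. No kallikrein peak (0%) had a neighbour within 5 kb, against 66.7% within 10 kb. Runs of high-scoring peaks numbered 17 and 31, against 9, when midpoints up to 30 and 50 kb apart were joined, all chosen after seeing the data. Kallikrein genes with a GATA string in the promoter numbered 4 with the core, against 2. No paired analysis was possible because the list carries no replicate values, and no replicate could be left out. Depth is unknown.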
